A study of Mus musculus with 48 samples.

Results

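Microglia, the resident macrophages of the brain, are recognised by a group of genes that they use at rest, often called the homeostatic genes. Most of these genes code for surface receptors with which microglia sense nucleotides, lipids, chemokines and growth factors in the surrounding tissue, and their use depends on TGF-beta signalling. Microglia that react to inflammation are known for lower levels of several of them.

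The 9 homeostatic genes read here were P2ry12, P2ry13, Gpr34, Cx3cr1, Csf1r, Tmem119, Siglech, Sall1 and Olfml3, out of 34797 gene names on the array. They were taken by name: every probe that was no control and carried one of these names was used, which gave 15 probes out of 55681. P2ry12 and P2ry13 code for receptors of ADP, and Gpr34 for a receptor of lysophosphatidylserine. Cx3cr1 codes for the receptor of the chemokine fractalkine, and Csf1r for the receptor of CSF1 and IL34, on which microglia depend for survival. Tmem119 codes for a transmembrane protein used as a microglia marker, and Siglech for a member of the family of sialic acid-binding lectins. Sall1 codes for a zinc finger transcription factor that maintains microglial identity, and Olfml3 for a secreted protein of the olfactomedin family.

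RNA was measured on 48 one-color Agilent arrays, 1 per sample, in 8 groups of 6. CD11B+ microglia and O4+ cells, the latter late progenitors of oligodendrocytes and immature oligodendrocytes, were isolated one after the other with magnetic beads from the brains of male pups. The pups had received intraperitoneal injections of PBS or of the inflammatory cytokine IL1B from postnatal day 1 to 5, and cells were taken at P5 or at P10, so that each cell type had a P5 PBS, a P5 IL1B, a P10 PBS and a P10 IL1B group. For the strain the labels have swiss and the study's methods OF1. By the labels each IL1B injection was 10 ng/g and P5 cells were collected 2 h after the last one, a shorter time than in the methods. According to the methods each sample held the pooled brains of 3 pups, without cerebellum and olfactory bulbs. Selection with magnetic beads enriches a cell type and leaves some other cells, and in such bulk samples fewer cells of a type and less RNA per cell cannot be told apart.

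All 15 probes were well above background on all 48 arrays, none of their spots was left out, and no spot was saturated. Between 52.9% and 65.4% of all probes were well above background on an array, arrays of the same group correlated with r of at least 0.958. How many arrays there are, 6 in a group, sets how precise each value is. Levels are given as log2 signal, after quantile normalization of the 24 arrays of each cell type, or of all 48 for comparisons of cell types. A gene stands for its probe with the most signal, and its other probes are given beside it, since 4 of the 9 genes had several. Called means a limma adjusted p under 0.05, over all probes, and group medians that differed by more than 1.5 times in signal. Overlap of groups was looked at only in the genes and lists read here, and the share of all probes without overlap was not counted.

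P2ry12 and P2ry13 lie next to each other on mouse chromosome 3. Both were called lower in CD11B+ microglia after IL1B at P5, as described below, and their promoters are shown for that reason. The sequences are from RefSeq (GRCm38.p6) and run from 250 bases before the transcription start to 50 bases after it, on the minus strand, at chr3:59262936-59263235 for P2ry12 and at chr3:59210833-59211132 for P2ry13. Capitals mark the letters GAGGAA, only 1 form of the site that the macrophage factor PU.1 binds, which were searched on both strands.
P2ry12: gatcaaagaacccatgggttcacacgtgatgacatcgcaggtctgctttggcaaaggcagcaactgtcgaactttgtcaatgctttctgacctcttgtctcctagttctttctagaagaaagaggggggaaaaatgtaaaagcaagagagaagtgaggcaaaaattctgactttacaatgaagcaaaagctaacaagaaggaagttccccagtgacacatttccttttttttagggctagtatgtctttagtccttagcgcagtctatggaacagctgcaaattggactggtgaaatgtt
P2ry13: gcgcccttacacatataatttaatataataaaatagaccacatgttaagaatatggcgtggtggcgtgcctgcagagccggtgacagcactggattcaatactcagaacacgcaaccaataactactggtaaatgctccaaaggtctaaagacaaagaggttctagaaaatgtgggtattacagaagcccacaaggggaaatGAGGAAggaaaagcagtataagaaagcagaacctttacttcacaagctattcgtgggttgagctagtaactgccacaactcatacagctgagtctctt
The P2ry13 window held 1 match, on its own strand at base 203 of the window, and the P2ry12 window held none. RefSeq windows were found for 6 of the 9 genes, 8 windows in all, and 2 of these held GAGGAA, that of P2ry13 and, on the opposite strand, that of Siglech. Over the whole table, 28.3% of 32851 promoters of this length held it. The longer form GAGGAAGT, which contains these letters, and TATAAA were in none of the 8 windows, against 3.2% and 13.6% of all promoters.

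The first comparison asked whether the genes mark the CD11B+ cells in these samples. In PBS pups, 8 of the 9 genes were called higher in CD11B+ microglia than in O4+ cells at P5 and 0 lower, whereas 21.8% of all probes were higher and 19.8% lower. At P10 it was again 8 genes, with backgrounds of 20.2% and 22.2%. Among these 8 genes the log2 difference at P5 ran from 1.69 for Csf1r to 3.44 for P2ry13, a ratio of 3.24 to 10.9. At P10 it ran from 3.07 for Csf1r to 5.13 for P2ry13, the latter a ratio of 35.0. P2ry13, for example, lay at 10.28 to 10.85 (median 10.67) on the O4+ arrays of P5 PBS pups and at 13.9 to 14.2 (median 14.1) on the CD11B+ arrays. Not 1 array of one cell type reached the range of the other for these 8 genes. Within the scan day that held 2 O4+ and 5 CD11B+ arrays of P5 PBS pups the differences were 3.63 for P2ry13 and 1.88 for Csf1r, and within that of P10, with 5 and 6 arrays, 5.08 and 3.09.

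Siglech was the exception, and its probes disagreed. The probe with the most signal, A_55_P2141013, was 0.39 lower in CD11B+ microglia at P5 (SE 0.07, limma adjusted p = 0.000241), which is under the fold threshold, and this direction turned with another scaling of the arrays. The second brightest, A_55_P2165790, was 3.22 higher at P5 and 5.01 higher at P10, and A_55_P2141008 was 1.91 and 2.48 higher. In the mm9 annotation of the array all 3 lie on chromosome 7, the first at 63034088 to 63034147 and the second at 63033826 to 63033885, and both are assigned to the same transcript. Siglech is therefore given below by its second probe too, a choice made after its values were seen.

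Probes of the other genes agreed in direction but not in size. In Csf1r the brightest probe showed a P5 difference between cell types of 1.69, and the other probes 3.18 and 2.97. In Cx3cr1 the values were 2.52 and 2.99, and in Olfml3 3.38 and 3.12. The plot of the genes with several probes shows this group by group.

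**Figure D1:**
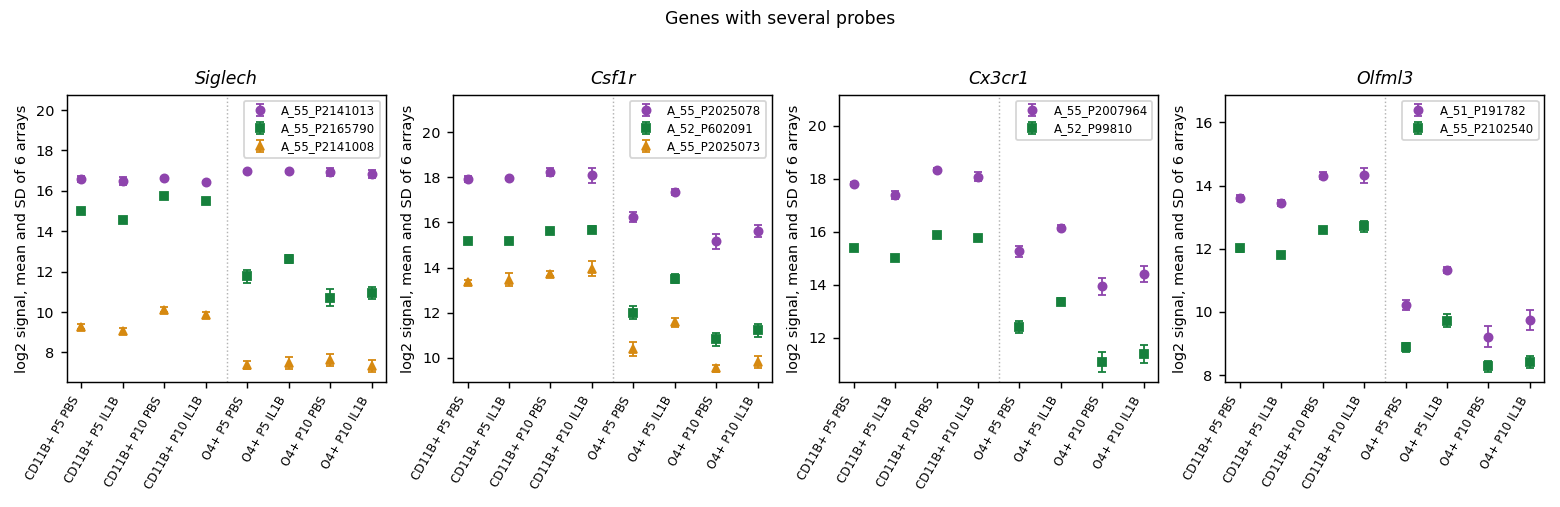
Log2 signal (y axis, normalized over all 48 arrays) of each probe of the 4 genes with several probes in the 8 groups (x axis); points are means and bars the SD of 6 arrays. Of the Siglech probes, the one with the most signal is 0.39 lower in CD11B+ cells of P5 PBS pups while the second brightest is 3.22 higher, and the other genes' probes follow one another.

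The order of the 8 groups was nearly the same from gene to gene. For each of the 8 genes other than Siglech, and for the second Siglech probe, all 4 CD11B+ groups lay above all 4 O4+ groups with no overlap between arrays of the cell types. P10 PBS was the highest CD11B+ group for 7 of the 8, whereas for Olfml3 the P10 IL1B group was highest by 0.007, with overlapping ranges. Among the O4+ groups P5 IL1B was the highest for all 8 genes. The lowest was P10 PBS for 7 of them, and for Sall1 it was P10 IL1B, overlapping with P10 PBS. Group means spanned 0.30 within the CD11B+ groups for Csf1r and 1.71 for Tmem119. Within the O4+ groups they spanned 0.76 for Sall1 and 2.21 for Cx3cr1.

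**Figure D2:**
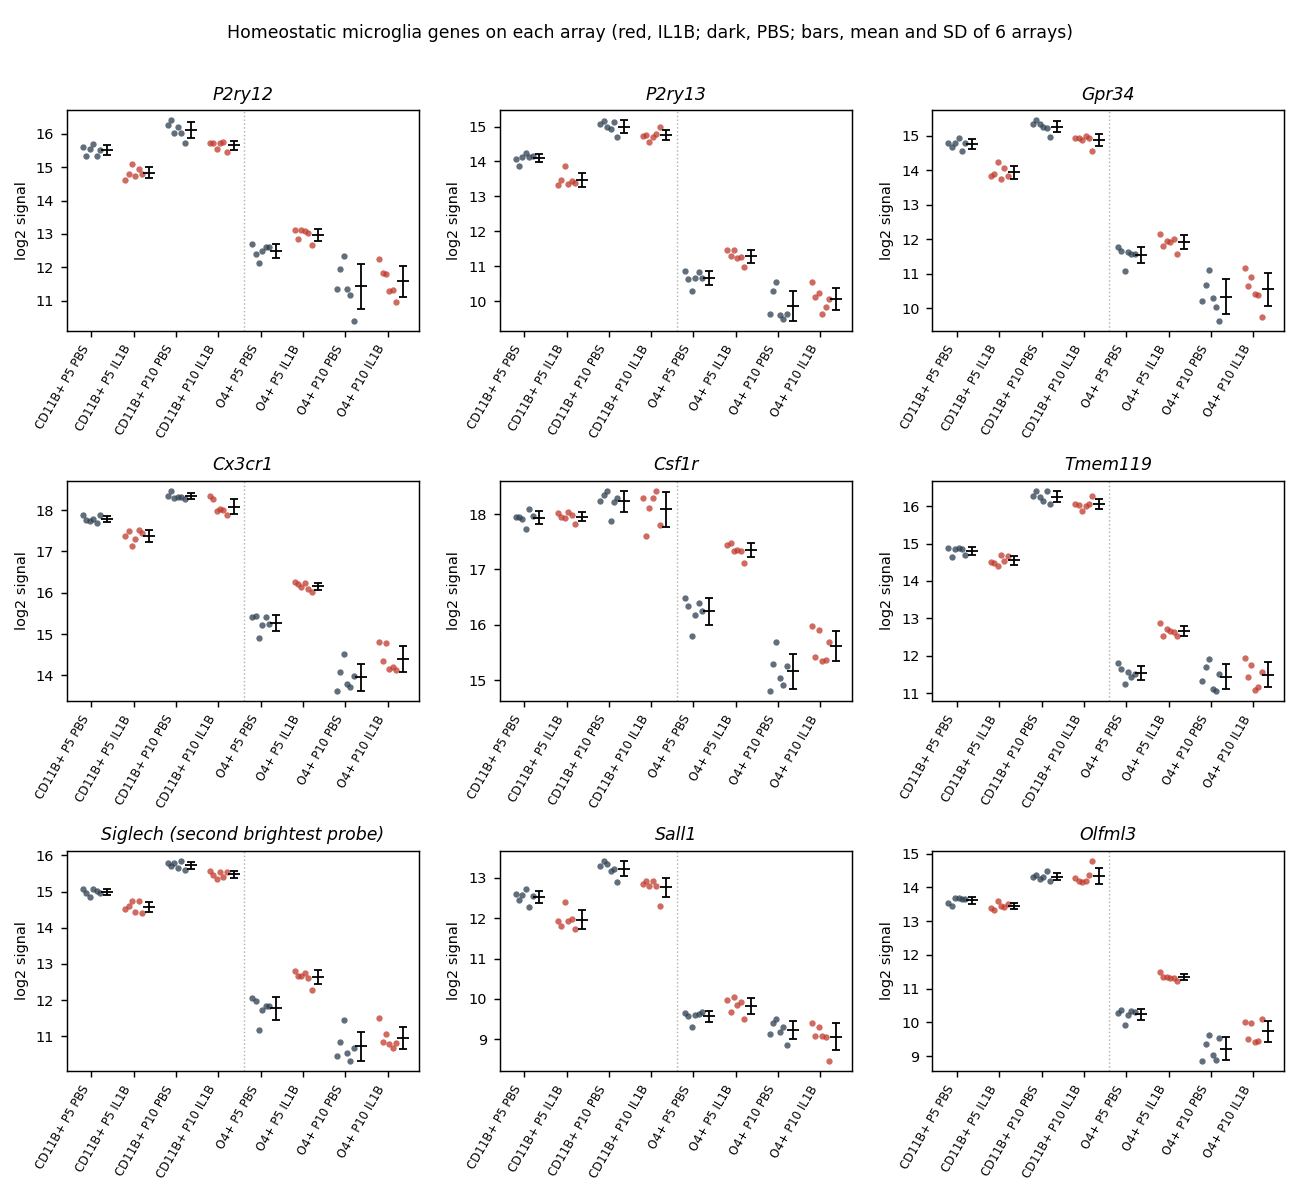
Log2 signal (y axis, normalized over all 48 arrays) of the 9 genes on every array, by group (x axis); points are arrays, bars the mean and SD of 6 arrays, and Siglech is drawn with its second brightest probe. The CD11B+ groups lie above the O4+ groups in each panel, and the P5 IL1B group is the highest of the O4+ groups but below its PBS group among the CD11B+ groups for each gene except Csf1r.

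The second comparison asked what IL1B did to these genes in CD11B+ microglia. At P5, 4 of the 9 genes were called lower and 0 higher, against 5.25% of all probes called lower and 4.06% higher. The 4 genes were the receptors Gpr34, P2ry12 and P2ry13 and the transcription factor Sall1. The median log2 difference was -0.42 over the 9 genes and -0.015 over all probes.

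Gpr34 had the largest change of the 9 genes. Its log2 signal was 14.61 to 15.02 with a median of 14.87 on the 6 PBS arrays, and 13.77 to 14.29 with a median of 13.90 on the 6 IL1B arrays. The groups did not overlap, and the difference of the means was -0.86 (SE 0.10, limma adjusted p = 7.32e-05), a ratio of 1.81. P2ry12, the ADP receptor by which microglial processes find injured tissue, ran from 15.4 to 15.8 on the PBS arrays (median 15.7) and from 14.7 to 15.2 on the IL1B arrays (median 14.9). Its groups did not overlap either, and it fell by 0.73 (SE 0.10, adjusted p = 0.000264). For its neighbour P2ry13 the PBS arrays ran from 13.9 to 14.3 and the IL1B arrays from 13.4 to 13.9, with medians of 14.2 and 13.4. Every IL1B array lay below every PBS array, the highest of them, replicate 3, by only 0.007, and the fall was 0.64 (SE 0.10, adjusted p = 0.000575). In Sall1 the PBS arrays lay at 12.3 to 12.7 (median 12.6) and the IL1B arrays at 11.7 to 12.4 (median 11.9). Here 5 of the 6 IL1B arrays lay below all PBS arrays, IL1B replicate 3 lay among them, and the fall was 0.60 (SE 0.11, adjusted p = 0.00274).

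The other receptors and surface proteins moved less. Cx3cr1 passed the test with a difference of -0.42 (adjusted p = 0.00126) and no overlap between groups, under the fold threshold, and its second probe gave -0.44 (adjusted p = 0.00012). Tmem119 had -0.26 (adjusted p = 0.0204), also under the threshold, and the second Siglech probe had -0.44 (adjusted p = 0.00136) with no overlap. Csf1r stayed level: its PBS arrays ran from 17.98 to 18.25 and its IL1B arrays from 18.04 to 18.21, with a difference of 0.02 and a 95% interval from -0.10 to 0.13. Its other probes gave -0.01 and 0.08. Olfml3, the secreted protein, had -0.16 (adjusted p = 0.0879).

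The CD11B+ P5 arrays were spread over slides and scan days. On the 1 slide that held both treatments, with 1 PBS and 4 IL1B arrays, the differences were -0.96 for Gpr34, -0.76 for P2ry12, -0.78 for P2ry13 and -0.72 for Sall1. Within the 1 scan day that held both, with 5 PBS and 4 IL1B arrays, they were -0.96, -0.78, -0.70 and -0.75. With slide as a block 1 of the 4 calls held, that of Gpr34. The adjusted p then became 0.0655 for P2ry12, 0.051 for P2ry13 and 0.0523 for Sall1.

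Other gene groups of the same samples moved differently. CD11B is also carried by neutrophils and blood monocytes, and all 9 of their markers that were measured rose, among them Mmp8 by 5.53, Ltf by 4.70 and Ngp by 4.55. Their mean log2 signal was 9.91 to 10.8 on the PBS arrays and 13.5 to 14.0 on the IL1B arrays. The part of these cells in the fall of the 4 genes was not tested. Among 16 other genes used by microglia in general, 1 rose and 2 fell, with a median difference of -0.05. Ptprc, which codes for CD45, rose by 0.83, and Slc2a5, a fructose transporter, and Fcrls fell by 1.51 and 0.84. Of the 10 markers of border-associated macrophages 0 were called, with values from -0.54 to 0.44.

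Ligands, signalling partners and upstream factors were read in the same way. Of 16 genes for ligands and partners of these receptors and for TGF-beta signalling, Cx3cl1, the ligand of CX3CR1, rose by 1.01. Itgb8, an integrin that activates TGF-beta, was not well above background on any IL1B array and was at least 1.82-fold lower there (adjusted p = 0.0266), the PBS mean being set against the lowest signal well above background on each IL1B array. Csf1, a ligand of CSF1R, had -0.56, under the fold threshold. Among 11 transcription factors of the macrophage lineage 3 rose and 0 fell, among them Runx1 by 1.37 and Cebpb by 1.08. Sall3, the relative of Sall1, had -0.33 (adjusted p = 0.0806).

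At P10, after 5 days without injections, 0 of the 9 genes were called in either direction, where 1.09% of all probes were called higher and 1.08% lower. All but Olfml3 had negative differences, for Csf1r on its brightest probe only. P2ry12 was at -0.48 (limma adjusted p = 0.0329), Sall1 at -0.48 (adjusted p = 0.0414) and Gpr34 at -0.42 (adjusted p = 0.0352), all under the fold threshold. With the brightest Siglech probe, at -0.19 (adjusted p = 0.0308), 4 genes were therefore lower when no fold threshold was set, against 3.16% of all probes. The groups overlapped for all 9 genes, with 4 of 6 IL1B arrays below all PBS arrays for P2ry12 and 5 of 6 for Gpr34. Within the scan day that held 6 PBS and 5 IL1B arrays the differences were -0.44 for P2ry12, -0.35 for Gpr34 and -0.39 for Sall1, and on the slide with 2 and 5 arrays -0.19, -0.17 and -0.22.

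P2ry13, Tmem119 and Cx3cr1 had -0.27, -0.22 and -0.18 at P10, and Csf1r -0.11 with an interval from -0.35 to 0.14. Of the other lists in these samples, Csf1 rose by 0.79 among the ligands and partners, and Ikzf1 and Sall3 fell by 0.56 and 0.55 among the transcription factors. Of the 16 other microglia genes 0 were called, and of the neutrophil and monocyte markers only Cxcr2, which fell by 0.67. The mean signal of that list was 11.0 to 11.8 with IL1B and 9.99 to 12.1 with PBS, and the groups overlapped.

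Whether the response differed between ages was tested by the interaction term, the response at P10 minus that at P5, with no fold threshold. In CD11B+ microglia it was positive for 7 of 9 genes, a smaller fall at P10, and called for 1, where 10.5% of all probes had a more positive and 6.3% a more negative term. The gene was Gpr34, with 0.44 (SE 0.14, limma adjusted p = 0.0349), and this call was lost without replicate 1, 2 or 4, with terms of 0.33 to 0.51. Second probes of Cx3cr1 and Olfml3 were also called, each with a term of 0.35. For P2ry12 the term was 0.25 with a 95% interval from -0.07 to 0.56, so that a difference between ages of that size was not resolved.

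**Figure D3:**
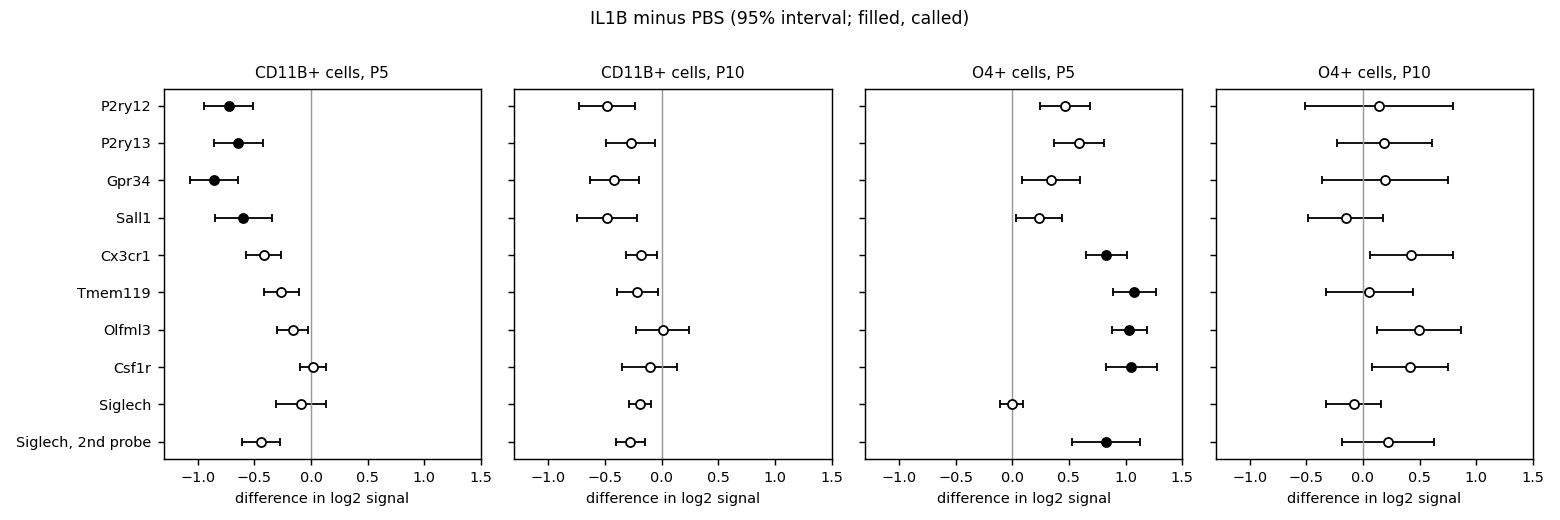
Difference in log2 signal between IL1B and PBS (x axis) for each gene (rows, ordered by role, with Siglech by its brightest and second brightest probe) in CD11B+ and O4+ cells at P5 and P10. Points are limma estimates from 6 against 6 arrays, bars 95% intervals, and filled points are called; the P5 values are mostly below 0 in CD11B+ cells, down to -0.86, and above 0 in O4+ cells, up to 1.08.

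The third comparison concerned the same genes in O4+ cells, where their signal was lower but above background. At P5, 4 of the 9 genes were called higher after IL1B and 0 lower, against 3.44% of all probes called higher and 1.49% lower. By probes it was 9 of 15. The 4 genes were Tmem119, Csf1r, Olfml3 and Cx3cr1, none of them among the 4 called in CD11B+ microglia. This rested on the fold threshold. By limma adjusted p under 0.05 alone 6 genes passed in each cell type. Of all 55681 probes, 7526 were then lower and 4490 higher in CD11B+ microglia, and 3760 higher and 6416 lower in O4+ cells. P2ry12, P2ry13, Tmem119 and Cx3cr1 passed in both, lower in CD11B+ microglia and higher in O4+ cells. The median difference was 0.59 over the 9 genes and -0.045 over all probes.

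Tmem119 ran from 11.3 to 11.8 with a median of 11.6 on the PBS arrays and from 12.6 to 12.9 with a median of 12.7 on the IL1B arrays. There was no overlap, and it rose by 1.08 (SE 0.09, limma adjusted p = 1.26e-05). Csf1r, the growth factor receptor, lay at 15.7 to 16.3 on PBS arrays (median 16.1) and at 16.9 to 17.2 on IL1B arrays (median 17.1). It rose by 1.05 (SE 0.10, adjusted p = 4.98e-05), and its other probes by 1.44 and 1.10. Olfml3 had 10.1 to 10.5 (median 10.4) and 11.3 to 11.6 (median 11.4), a rise of 1.03 (SE 0.07, adjusted p = 4.1e-06), with 0.80 on its other probe. For Cx3cr1 the PBS arrays ran from 14.8 to 15.3 (median 15.2) and the IL1B arrays from 15.9 to 16.1 (median 16.0), a rise of 0.83 (SE 0.08, adjusted p = 5.64e-05), and of 0.90 on its second probe. In all 4 genes every IL1B array lay above every PBS array.

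The ADP receptors and Gpr34 changed less in O4+ cells. P2ry13 had 0.59 (adjusted p = 0.00219) with no overlap of the groups, and a ratio of medians of 1.492, just under the threshold. It passed in 6 of the 12 fits that left out 1 array. P2ry12 had 0.47 (adjusted p = 0.00835), also under the fold threshold, with 5 of 6 IL1B arrays above all PBS arrays. Gpr34 had 0.34 (adjusted p = 0.0644) and Sall1 0.24 (adjusted p = 0.104). The second Siglech probe rose by 0.83 (adjusted p = 0.00177) without overlap, whereas the brightest had -0.01 (95% interval -0.11 to 0.09).

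Within slides and scan days the 4 called genes kept their direction. On the scan day with 2 PBS and 5 IL1B arrays the differences were 1.25 for Tmem119, 1.23 for Csf1r, 1.14 for Olfml3 and 1.00 for Cx3cr1. The smaller sets, a scan day and slide with 4 PBS and 1 IL1B array and a slide with 2 and 1, gave 0.89 and 1.43 for Tmem119 and 0.79 and 1.10 for Cx3cr1.

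The rise in O4+ cells came with that of other macrophage genes. Of the 16 other microglia genes 12 rose and 0 fell, with a median difference of 1.25, led by Ctss with 1.95, C1qb with 1.79 and C1qc with 1.69. Their mean log2 signal went from 11.97 to 12.56 on the PBS arrays to 13.25 to 13.69 on the IL1B arrays. Among the transcription factors 7 of 11 rose, Runx1 by 2.49, Cebpb by 2.29 and Cebpa by 1.82. Of the 16 ligands and partners 10 rose, P2ry6, a receptor of UDP, by 1.63, Adora3 by 1.27 and Tyrobp, the adaptor of microglial receptors, by 1.22. Border macrophage markers rose in 4 of 10 cases.

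Neutrophil and monocyte markers rose in O4+ cells as well, 9 of 9, with S100a8 by 6.20 and S100a9 by 5.98. Ngp was not well above background on any PBS array, and was at least 9.04-fold higher with IL1B (adjusted p = 0.000899). The same held for Ltf, Mmp8 and Ccr2, at least 16.5-fold, 2.95-fold and 1.11-fold higher. Ccr2 was well above background on only 2 of the 6 IL1B arrays. The mean of the 9 markers went from 3.94 to 4.53 with PBS to 6.13 to 9.41 with IL1B, and 2 of the 9 were above background on all 24 O4+ arrays. Markers of the oligodendrocyte lineage had 0 of 11 called, with a mean of 14.7 to 14.8 with PBS and 14.4 to 14.6 with IL1B. The part that a different share of microglia or of other leucocytes among the O4+ cells has in these results was not tested.

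At P10, 0 of the 9 genes were called in O4+ cells, against 2.49% of all probes called higher and 1.41% lower. The differences ran from -0.15 for Sall1 to 0.50 for Olfml3, with limma adjusted p of 0.0875 for the latter, and all groups overlapped. Csf1r had 0.42 (95% interval 0.08 to 0.75) and Cx3cr1 0.43 (0.06 to 0.80), while Tmem119 had 0.05 (-0.33 to 0.44). Of the other microglia genes 8 of 16 still rose, Ctss by 0.96, Trem2 by 0.76 and Ptprc by 0.74. Markers of other cells moved too. Of the 9 neutrophil and monocyte markers 6 were called higher, S100a9 by 3.81 and S100a8 by 2.82, although only 5 and 4 of the 6 PBS arrays had these above background. Ngp and Ltf were well above background on no PBS array. Against the lowest signal well above background there, the IL1B mean was at least 0.951-fold for Ngp, which shows no rise, and 1.42-fold for Ltf. The mean of the list went from 3.12 to 4.13 with PBS to 4.48 to 5.73 with IL1B. Of the 6 astrocyte markers 3 rose, Aqp4 by 0.73, Aldh1l1 by 0.65 and Slc1a3 by 0.57. In the oligodendrocyte lineage Pdgfra and Cspg4, genes of the progenitors, rose by 0.94 and 0.76, and Mog, a myelin gene, fell by 0.87. The part of these cells in the values of the 9 genes was not tested.

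In O4+ cells the response at P10 minus that at P5 was negative for all 9 genes. It was called for 2 of them, where 5.32% of all probes had a more negative and 7.83% a more positive term. Tmem119 had -1.02 (SE 0.20, limma adjusted p = 0.00148) and Csf1r -0.63 (SE 0.19, adjusted p = 0.0281). The other Csf1r probes had -1.07 and -0.85, both called. The call of the brightest Csf1r probe was lost without replicate 2, 3, 4 or 5, and with slide as a block neither gene was called, at -0.93 for Tmem119 (adjusted p = 0.0532) and -0.71 for Csf1r (adjusted p = 0.107).

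The responses of the cell types were then set against each other on the scale of all 48 arrays. At P5 the response in O4+ cells minus that in CD11B+ microglia was positive for all 9 genes and called for 8, every gene but Siglech, where 6.93% of all probes had a more positive and 3.78% a more negative term. It was 1.37 for Tmem119 (SE 0.12, limma adjusted p = 6.09e-08), 1.30 for Cx3cr1, 1.26 for Olfml3 and 1.25 for P2ry13. Gpr34 and P2ry12 followed with 1.18 and 1.16, Csf1r with 1.08 and Sall1 with 0.83 (adjusted p = 0.000588). The second Siglech probe had 1.28 and was called too.

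These terms came from different sides in different genes, by the values of each cell type given above. In Csf1r the term came from a rise of 1.05 in O4+ cells beside a value of 0.02 in CD11B+ microglia. For Gpr34 it was a fall of 0.86 in CD11B+ microglia beside 0.34 in O4+ cells. At P10 all 9 terms were positive again, and 1 was called, with 3.92% of all probes more positive and 3.65% more negative. That was Cx3cr1, with 0.70 (SE 0.20, limma adjusted p = 0.0303), a call lost without replicate 1, 2, 4 or 5.

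The last comparison was that of P5 and P10 in PBS pups. In CD11B+ microglia 5 of the 9 genes were called higher at P10 and 0 lower, against 4.65% of all probes called higher and 3.62% lower. In O4+ cells 6 were called lower and 0 higher, against 8.97% and 7.87%. These contrasts use the same PBS arrays as the IL1B contrasts above, so their values are not independent of those.

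Tmem119 had the largest rise with age in CD11B+ microglia. Its arrays ran from 14.7 to 14.9 at P5 and from 16.2 to 16.6 at P10, with medians of 14.9 and 16.4, and it rose by 1.57 (SE 0.08, limma adjusted p = 1.52e-06), a ratio of 2.96. P2ry13 ran from 13.9 to 14.3 at P5 and from 14.7 to 15.3 at P10, a rise of 0.95 (SE 0.09, adjusted p = 3.75e-05). Sall1 rose by 0.73 (adjusted p = 0.000268) and Olfml3 by 0.73 (adjusted p = 1.85e-05). P2ry12 rose by 0.64 (SE 0.12, adjusted p = 0.00203), from 15.4 to 15.8 at P5 to 15.9 to 16.6 at P10. None of the 5 had overlapping groups. The second Siglech probe rose by 0.80 and the dimmest by 0.89, both called, whereas the brightest had 0.06.

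Gpr34 and Cx3cr1 had 0.54 (adjusted p = 0.00131) and 0.39 (adjusted p = 4.92e-05), without overlap and under the fold threshold. Csf1r had 0.20 (adjusted p = 0.0572), and its other probes 0.47 and 0.37. The call of P2ry12 was lost when CD11B+ P10 PBS replicate 1, 2 or 4 was left out, with rises of 0.58 to 0.72 over all 12 such fits. P5 and P10 PBS arrays shared no slide and no scan day, so age cannot be told apart from slide or scan day. A random block does not separate them either. With slide as such a block 5 genes remained above the thresholds, and with scan date 4, P2ry12 having an adjusted p of 0.0578.

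In O4+ cells the same receptors had less signal at P10. Cx3cr1 ran from 14.8 to 15.3 (median 15.2) at P5 and from 13.6 to 14.5 (median 13.9) at P10, and fell by 1.24 (SE 0.14, limma adjusted p = 3.77e-05). Gpr34 fell by 1.15 (SE 0.20, adjusted p = 0.000901), from 11.2 to 11.8 at P5 to 9.83 to 11.2 at P10, with overlap of 1 array. Csf1r fell by 1.01 (adjusted p = 0.000203) and Olfml3 by 0.95 (adjusted p = 0.000207), both without overlap. P2ry12 fell by 1.01 (SE 0.26, adjusted p = 0.00903) and P2ry13 by 0.73 (adjusted p = 0.00577), and for these the P10 arrays were widely spread, from 10.5 to 12.4 for P2ry12. These groups shared no slide or scan day either, so age cannot be told apart from them here. With slide or scan date as a random block, which does not separate them, 5 of the 6 calls held. That of P2ry13 was lost, at -0.74 (adjusted p = 0.0556).

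Tmem119, the gene that rose most in CD11B+ microglia, had -0.09 in O4+ cells (95% interval -0.41 to 0.22), and this sign turned with other scalings of the arrays. Sall1 had -0.33 (adjusted p = 0.0265), under the fold threshold, and the second Siglech probe fell by 1.00 (adjusted p = 0.00148).

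**Figure D4:**
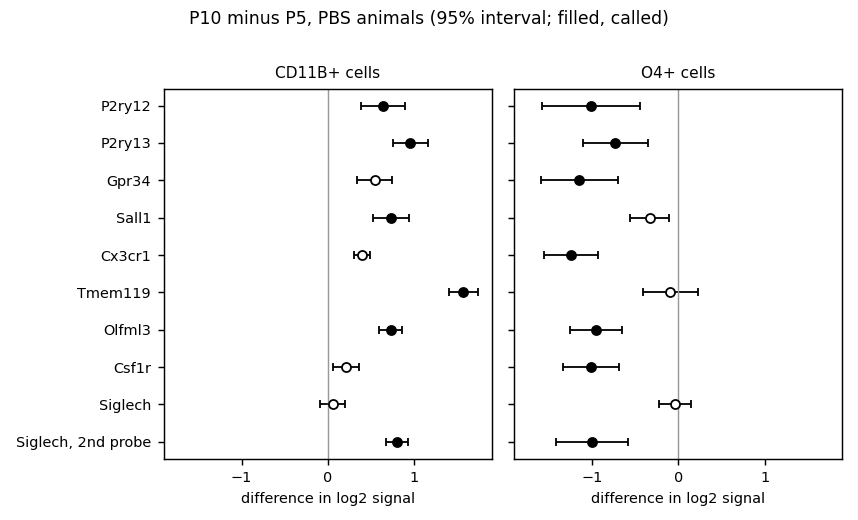
Difference in log2 signal between P10 and P5 in PBS pups (x axis) for each gene (rows) in CD11B+ and in O4+ cells. Points are limma estimates from 6 against 6 arrays, bars 95% intervals, and filled points are called; values reach 1.57 for Tmem119 in CD11B+ cells and -1.24 for Cx3cr1 in O4+ cells.

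Other lists moved with age too. In CD11B+ microglia 2 of the 16 other microglia genes rose, Selplg by 1.85 and Itgam by 0.89, and 0 fell. Among the transcription factors Ikzf1 rose by 1.39, Sall3 by 0.95 and Bhlhe41 by 0.93, 4 in all, and Tfec fell by 0.73. Ligands and partners gave 3 rises, Adora3 by 0.70, Entpd1, which breaks down extracellular ATP, by 0.60 and P2rx7 by 0.55, and 1 fall, that of Csf1 by 1.15. Border macrophage markers fell in 7 of 10 cases, Lyve1 by 1.34, Cd163 by 1.11 and Pf4 by 0.98, their mean going from 13.8 to 14.1 at P5 to 13.3 to 13.5 at P10. Oligodendrocyte markers rose in 8 of 11 cases, among them Mag by 2.25 and Mog by 1.41, with means of 10.0 to 10.6 and 11.3 to 11.9. The part of these other cells in the age differences of the 9 genes was not tested.

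In O4+ cells the decline with age was shared by 13 of the 16 other microglia genes, with Trem2 at -1.60, C1qc at -1.54 and Cd68 at -1.498. Their mean signal went from 11.97 to 12.56 at P5 to 11.00 to 11.81 at P10. Itgam alone was called higher, with 0.97 on its brightest probe, but its probes disagreed: on the scale of all 48 arrays another had a mean of 7.57 at P5 and 7.09 at P10, and the last 4.62 and 5.57. Of the transcription factors 8 of 11 fell, Cebpb by 2.01, Runx1 by 1.79 and Irf8 by 1.59, and of the ligands and partners 9 of 16, Lrrc33, a TGF-beta carrier, by 1.69, Tyrobp by 1.31 and Adora3 by 1.27. Their direction was that of the 9 genes, of which the median difference was -0.95 against 0.017 over all probes. The part of this wider decline in that of the 9 genes was not tested.

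Within groups the 9 genes varied together in O4+ cells more than in CD11B+ microglia. For these correlations Siglech stood by its second brightest probe, the choice made after its values were seen. Over the 24 O4+ arrays, taken as deviations from the group means, the 36 pairs of genes had a median Pearson r of 0.78 (0.11 to 0.95). Over the 24 CD11B+ arrays the median was 0.11 (-0.42 to 0.92). Against the mean of the other microglia genes the median r of the 9 genes was 0.88 in O4+ cells and -0.07 in CD11B+ microglia. In O4+ cells it was -0.46 against the oligodendrocyte lineage, -0.03 against neutrophils and monocytes and 0.35 against border macrophages. In CD11B+ microglia it was -0.32 against neutrophils and monocytes and -0.34 against border macrophages. These correlations are descriptions, since arrays share slides, scan days and the joint normalization.

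The genes whose pattern was most like the mean of the 9 genes were sought among named genes with a probe above background on all 24 arrays of a cell type. Siglech entered this mean by its brightest probe. Over the 24 O4+ arrays, group differences included, the 10 nearest were Nckap1l, Ikzf1, 1810011H11Rik, Cyth4, Syk, Ccdc88b, Rps6ka1, Adora3, Inpp5d and Tnfaip8l2, with r from 0.992 to 0.986. Over the 24 CD11B+ arrays they were Foxj3, Kif21b, Cxxc5, Tmem100, Commd8, Dyrk4, Myst3, Hmga2-ps1, Hspb3 and BC065397, with r from 0.991 to 0.979.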

How the data were processed

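The arrays measured total RNA of O4+ and CD11B+ cells, labelled with Cy3, and were read by the authors with Agilent Feature Extraction 10.7.3.1, per the file headers. The deposited scanner files hold a background-subtracted intensity for each of 59305 spots besides the controls, for 55681 probes annotated in mm9. The deposited matrix holds the ratio of each intensity to its array's median, from which no value strayed by more than 1.86e-05 (log2). The study quantile-normalized its intensities and used an equal-variance test and a ratio of medians of 1.5.

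Here intensities were taken to log2, without the 278 non-uniform spots of all arrays, then quantile-normalized. Repeated spots were averaged, and dim probes were kept. Groups, taken from the labels, were tested in limma 3.58.1 (R 4.3.3, data.table, version 1.17.8), with Benjamini-Hochberg adjustment over all probes. Differences between responses were interaction terms. Scripts were tested on simulated data. P-values measure the spread between 6 samples, called independent biological replicates in the methods. The P10 label descriptions repeat P5, and title, source and stage were followed.

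The genes, lists and tests were chosen with earlier results of these data known. Of each list, up to the 3 largest called rises and falls were named, and 2 of these are not reported here. In a list a gene stands for its brightest probe. Lists were 16 ligands and partners, 11 of 12 transcription factors (no probe was named Spi1), 16 other microglia genes, 10 border macrophage, 9 of 10 neutrophil and monocyte (none named Ly6c2), 11 oligodendrocyte lineage, 6 astrocyte, 6 neuron and 6 endothelial markers. Alternatives were the 75th percentile, normexp with an offset of 50, other arrays normalized together, the deposited ratio matrix, only probes above background, the methods' t-test, the mean of log2 values for the fold, no fold threshold, a fit over all 4 groups, the slide, the scan date or the replicate number as a block, the mean of a gene's probes, and each array left out. The second brightest Siglech probe was added after seeing the data.

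Replicate numbers were not taken to pair samples: the methods say that both cell types came from the same animals, but no source says that equal numbers do.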

Additional observations from a re-analysis of the deposited data

Results flagged for a closer look

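In 14 of 72 sets of 6 arrays, 1 per gene and group, the highest or lowest array stood apart from the others by Dixon's test, which chance gives in about 1 in 20 sets. Values are log2 signal within a cell type.

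Replicate 3 of CD11B+ P5 IL1B was the highest for P2ry13 at 13.89, Sall1 at 12.375 and Siglech at 17.075, 3 genes of which the first and the second had fallen in that group. Replicate 6 of CD11B+ P10 IL1B was the lowest for Gpr34 at 14.603 and Sall1 at 12.276 and the highest for Olfml3 at 14.847. Replicate 3 of O4+ P5 PBS was the lowest for Gpr34 at 11.176, Olfml3 at 10.091 and Sall1 at 9.494. The remaining ones were single: Siglech at 16.337 in O4+ P10 PBS replicate 6 and at 16.486 in CD11B+ P5 PBS replicate 5, Sall1 at 8.69 in O4+ P10 IL1B replicate 6, Csf1r at 18.073 in CD11B+ P10 PBS replicate 4 and Cx3cr1 at 18.519 in CD11B+ P10 PBS replicate 2. Without any 1 of these arrays all 4 calls in CD11B+ microglia at P5, all 4 in O4+ cells at P5 and all 6 of the age comparison in O4+ cells held. In the age comparison of CD11B+ microglia the call of P2ry12 was lost without P10 PBS replicate 2 or 4, its rise being 0.58 to 0.72 over the fits without 1 array.

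Interaction terms of the IL1B response passed a limma adjusted p under 0.05 in 12 cases, each contrast covering 9 genes. Between ages the term was 0.44 for Gpr34 in CD11B+ microglia, and -0.63 for Csf1r and -1.02 for Tmem119 in O4+ cells. The Gpr34 call, 1 of 9 genes, was near the 10.5% of all probes more positive there. It was lost without replicate 1, 2 or 4. In O4+ cells 5.32% of all probes had a more negative term. Between cell types at P5 the term was 1.26 for Olfml3, 1.25 for P2ry13, 1.08 for Csf1r, 1.16 for P2ry12, 1.18 for Gpr34, 1.37 for Tmem119, 0.83 for Sall1 and 1.30 for Cx3cr1, and at P10 it was 0.70 for Cx3cr1. More positive terms between cell types were found for 6.93% of all probes at P5 and 3.92% at P10.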

How the results depend on the processing

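Of the calls between groups, 4 lower in CD11B+ microglia at P5 became 1 with slide as a block, 0 at P10 became 4 without a fold threshold, and the 5 rises with age became 3 with the 75th percentile. The other 5 counts stayed within 1.5 times under all alternatives run. The 1 call between ages in CD11B+ microglia became 2 with normexp and with the mean of probes, 3 with the matrix and with probes above background only, and 0 to 2 without 1 replicate number. The 2 calls in O4+ cells became 4 with the 75th percentile, 0 with slide and 1 to 3 without 1 replicate number. The 1 call between cell types at P10 became 0 with the 75th percentile, the matrix, slide and the mean of probes, 2 with scan date and 0 to 2 without 1 replicate number. The cause was not tested. The 8 calls between cell types at P5 stayed 8 to 9. Replicate number as a block changed none of the 12 counts, for example 4 calls in CD11B+ microglia at P5. Deviations of equally numbered samples correlated from 0.047 to 0.358 between cell types at P5 and from -0.042 to 0.329 at P10, over 0.1 in 5 of 6 pairs each time, and 5 and 4 of 6 samples correlated best with their own number, a hint from the data and not from the design.

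Signs turned for values that were not called. Csf1r in CD11B+ microglia at P5 became -0.0673 with normexp, -0.0149 with slide and -0.0134 without PBS replicate 4, and at P10 0.0084 with the matrix and 0.0608 with the mean of probes. Olfml3 there at P10 became -0.11 with slide, -0.0876 with scan date and -0.0876 to -0.0032 without PBS replicate 3 or 6 or IL1B replicate 6. In O4+ cells at P10 Tmem119 became -0.0518 with the 75th percentile, -0.0309 with the matrix and -0.0294 to -0.0068 without 1 array, and P2ry12 -0.0541 without PBS replicate 6. With age in O4+ cells Tmem119 became 0.0873 with the 75th percentile and 0.0884 with the matrix. The brightest Siglech probe between cell types at P5 became 0.50 with the 75th percentile, 0.61 with the matrix, 1.58 with the mean of probes and 3.22 with the second probe, and at P10 0.11, 0.25, 2.40 and 5.01.

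These scalings moved the median of all probes by -0.17 to 0.30 (75th percentile) and -0.21 to 0.40 (matrix). They moved the split of called probes, 2258 higher and 2924 lower in CD11B+ microglia at P5, to 2833 and 2369 with the 75th percentile, and that at P10, 607 and 603, to 713 and 387 with the matrix. In O4+ cells 1916 and 827 at P5 became 1829 and 1300 with the matrix, and 1387 and 786 at P10 became 1537 and 2064 with the 75th percentile and 1684 and 1568 with the matrix. Between cell types at P5, 12155 and 11023 became 18185 and 9602 with the matrix. More positive and more negative interaction terms, 5872 and 3506 between ages in CD11B+ microglia, became 6543 and 1381 with the matrix. In O4+ cells 4361 and 2961 became 2888 and 4938 with the 75th percentile, and between cell types at P10 2181 and 2030 became 2042 and 8599 with the 75th percentile and 1415 and 8106 with the matrix. The number of arrays limits what could be resolved.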

Other observations

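Itgam, which codes for the antigen CD11B used for isolation, had 3 probes that disagreed between cell types in the way the Siglech probes did. On the scale of all 48 arrays its brightest probe had a mean of 15.8 in O4+ and 13.8 in CD11B+ cells of P5 PBS pups, whereas probe A_55_P1977929 had 7.57 and 11.2, and the other one 4.62 and 7.52. The probes were named after their values were seen.

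Markers of endothelial cells fell with IL1B at P5 in 4 of 6 cases in each cell type. Cldn5, a tight junction gene, fell by 1.59 in CD11B+ microglia and by 1.27 in O4+ cells, and Tek, the angiopoietin receptor, by 1.47 and 1.35. At P10 0 of the 6 were called in either cell type (limma adjusted p under 0.05 and a ratio over 1.5).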
